A study of Homo sapiens with 2 samples.

Results

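Aminoacyl-tRNA synthetases join each amino acid to its tRNA. The set described here held 36 of the 13075 genes in the expression table: 20 genes for cytosolic enzymes and 16 for mitochondrial enzymes. They were taken by gene symbol from a list of both families, and all 36 listed symbols were found, each in 1 row. The enzymes first activate the amino acid with ATP and then transfer it to the tRNA, and the charged tRNA is what the ribosome uses to read a codon. Most cytosolic enzymes and their mitochondrial counterparts are products of separate nuclear genes. Both families are therefore seen here as nuclear-encoded messenger RNAs. Class I and class II enzymes have unrelated catalytic folds, and several cytosolic enzymes are held together in the multisynthetase complex by scaffold proteins.

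The study set out to find RNAs that carry cleavage complexes of TOP3B, a topoisomerase that can act on RNA as well as DNA and that becomes joined to the nucleic acid when it cuts it. HEK293 cells, a line derived from human embryonic kidney, received by transfection a FLAG-tagged TOP3B with the substitution R338W. The RIP library (native RNA immunoprecipitation, with no crosslinking step named) held RNA recovered from the lysate with the monoclonal anti-FLAG M2 antibody. The input library held RNA of the same kind of lysate with no antibody. Both groups therefore carried the transfected R338W protein, both were labelled passage 15, and each was 1 library, so no value below has a replicate check and no difference was tested. Cells that lack the tagged protein and cells with wild-type TOP3B were not analysed here. A ratio of RIP over input thus cannot be told apart from RNA that binds the beads or the antibody, and no value is a count of cleavage complexes.

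The unit of expression was not named and was taken to be FPKM, which divides the fragments of a gene by its transcript length and by the size of the library. The ratio used throughout is log2((RIP + 1)/(input + 1)) and the added 1 FPKM pulls low genes toward 0. The comparison covered the 11990 genes that reached 5 FPKM in either library, 10513 of them protein-coding. Depth was estimated from the steps of the values at about 24900000 fragments for the RIP and 15300000 for the input. TOP3B, the bait, had 30666 FPKM in the RIP against 15062 in the input, which is 1.03 as a log2 ratio. The values of protein-coding genes made up 48.5% of all RIP FPKM and 30.9% of all input FPKM. The median gene had a ratio of 0.13 (quartiles -0.25 and 0.50), and the median protein-coding gene 0.15. Of 8 genes listed as markers of HEK293 cells, 7 were in the table and PAX2 was not. Of these 7, 5 had a ratio above 0 and 2 below it, where 58.7% of all genes were above 0. Their most abundant, the intermediate filament gene VIM, had 678.56 FPKM in the RIP against 544.29 in the input. The table held 1 of 8 kidney tubule markers (LRP2), 0 of 6 liver markers and 0 of 7 blood cell markers. The rule by which genes entered the table is not given, so absence from it cannot be read as absence of expression.

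Mitochondrial enzyme genes toward the ends of the ratio are shown first by a piece of their message, because base composition and exon structure are compared across the set further on. Each line is the middle 90 bases of the central coding exon of the transcript with the longest coding sequence, read 5′ to 3′ on the gene's strand from GRCh38 with the GENCODE 29 annotation. Capitals mark G and C. The mitochondrial genes at the ends of their own group were CARS2, for cysteine, and IARS2, for isoleucine. The CARS2 stretch lies in exon 8 of 15 at chr13:110667362-110667451, minus strand, and the IARS2 stretch in exon 12 of 23 at chr1:220114349-220114438, plus strand. AARS2, the mitochondrial alanine enzyme, had the ratio next to that of CARS2 and is printed as the stretch richest in G and C, from exon 11 of 22 at chr6:44305082-44305171, minus strand.
CARS2: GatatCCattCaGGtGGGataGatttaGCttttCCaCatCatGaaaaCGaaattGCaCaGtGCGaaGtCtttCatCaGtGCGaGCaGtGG
IARS2: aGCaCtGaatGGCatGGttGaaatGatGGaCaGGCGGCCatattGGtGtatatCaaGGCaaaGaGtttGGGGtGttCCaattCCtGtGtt
AARS2: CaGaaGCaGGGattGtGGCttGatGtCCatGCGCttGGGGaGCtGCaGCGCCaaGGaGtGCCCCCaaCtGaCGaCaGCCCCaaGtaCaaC
These stretches held 39 G or C bases in CARS2 (43.3%), 41 in IARS2 (45.6%) and 54 in AARS2 (60.0%). The CARS2 stretch was poorer in G and C than the gene's whole coding sequence, at 56.0%, so 1 stretch does not stand for a gene.

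Across the set, synthetase messages were mostly higher in the RIP than in the input, by less than 2-fold. Of the 35 members past the 5 FPKM limit, 28 (80.0%) had a ratio above 0, against 58.7% of all genes and 60.8% of protein-coding genes. The median member ratio was 0.51 (quartiles 0.15 and 0.69), against 0.13 for all genes. By the 2-fold limit, 1 of 35 members was higher in the RIP (AARS, 2.86% of the members), against 4.90% of all genes and 3.65% of protein-coding genes. None of the 35 was 2-fold lower in the RIP, against 2.50% of all genes and 0.533% of protein-coding genes. A 1.5-fold limit placed 14 of 35 members higher in the RIP, against 19.9% of all genes and 19.2% of protein-coding genes. By that limit 0 members were lower, against 10.2% of all genes and 7.01% of protein-coding genes. The share past 2-fold was thus no larger than in the table as a whole, while the members' median was higher. By class, the 19 class I enzymes had a median of 0.52 with 14 above 0, and the 16 class II enzymes past the limit had a median of 0.44 with 14 above 0. From the estimated depth, the counting error of a member's ratio had a median of 0.044 on the log2 scale and reached 0.127 in MARS2. These errors cover counting only and not the spread between preparations. The remaining member, PARS2, the mitochondrial proline enzyme, had 3.71 FPKM in the RIP against 2.85 in the input and stayed below the limit. MARS2 passed it through its input value alone.

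**Figure D1:**
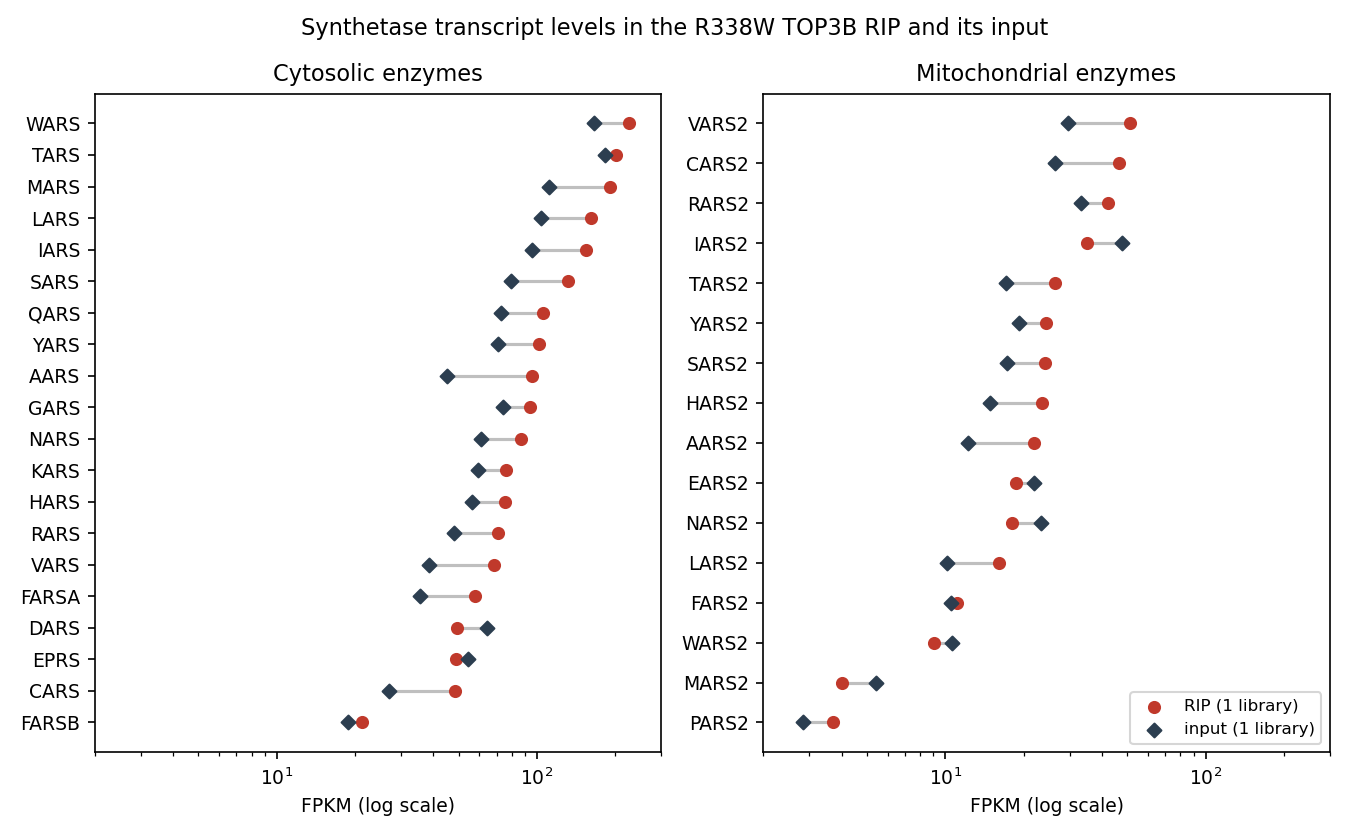
FPKM of each synthetase gene in the RIP (circles) and the input (diamonds) on a log axis, 1 library each, with cytosolic enzymes in the left panel and mitochondrial enzymes in the right. The circle lies right of the diamond in 18 of 20 cytosolic genes, with DARS and EPRS as the exceptions, and the mitochondrial genes sit at lower levels in both libraries.

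The cytosolic enzymes that belong to the multisynthetase complex spanned most of the range. MARS, the methionine enzyme, which also charges the initiator tRNA, had 190.34 FPKM in the RIP against 111.54 in the input, a ratio of 0.77. IARS, for isoleucine, had 154.04 FPKM in the RIP against 95.37 in the input (0.69). LARS, the leucine enzyme, also known as a leucine sensor upstream of mTORC1, had 161.57 FPKM in the RIP against 103.96 in the input (0.63). These are among the most abundant messages of the set in both libraries. RARS, for arginine, had 70.79 FPKM in the RIP against 48.1 in the input (0.55), and QARS, for glutamine, had 105.03 FPKM in the RIP against 72.84 in the input (0.52). KARS, the lysine enzyme, supplies both the cytosol and mitochondria from 1 gene, and had 75.78 FPKM in the RIP against 59.13 in the input (0.35). The other members of the complex were the only cytosolic genes lower in the RIP. EPRS, a single protein that charges both glutamate and proline tRNAs, had 48.65 FPKM in the RIP against 54.46 in the input (-0.16). DARS, the aspartate enzyme and the lowest of the cytosolic group, had 49.5 FPKM in the RIP against 64.26 in the input (-0.37), and the gene lies at chr2:135906677-135986100. Together, 6 of the 8 enzymes of the complex had a ratio above 0, against 60.8% of protein-coding genes, and their median was 0.54. Set against protein-coding genes of the same class of exon number, a comparison explained further on, that median was 0.045. Each of the 8 has 13 exons or more. A ratio above 0 was seen in 80.1% of coding genes with 13 to 18 exons, and in 91.9% with 19 or more.

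The scaffold genes of the same complex, which hold the enzymes together and have no charging activity, were all lower in the RIP. AIMP2 had 22.04 FPKM in the RIP against 26.01 in the input (-0.23). EEF1E1, also called AIMP3, had 57.3 FPKM in the RIP against 82.15 in the input (-0.51). AIMP1 had 16.96 FPKM in the RIP against 26.74 in the input (-0.63). The scaffold genes have 4 to 7 exons. A ratio above 0 was seen in 29.7% of coding genes with 1 to 5 exons, and in 45.5% with 6 to 8. Of all protein-coding genes, 39.1% had a ratio below 0. In the same comparison by exon number the scaffold median was -0.29, against -0.51 with no such adjustment.

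Among cytosolic class I enzymes outside that list, CARS, for cysteine, had 48.39 FPKM in the RIP against 26.95 in the input (0.82). VARS, the valine enzyme, which binds translation elongation factor 1, had 68.16 FPKM in the RIP against 38.34 in the input (0.81). The ratios of CARS and VARS differed by less than their counting error. YARS, for tyrosine, had 102.08 FPKM in the RIP against 70.94 in the input (0.52). WARS, the tryptophan enzyme, a gene known to respond to interferon gamma, was the most abundant member in the RIP, with 225.13 FPKM there and 165.3 FPKM in the input (0.44). All 4 of these lay above the median gene.

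The cytosolic class II enzymes outside the complex held the highest cytosolic ratio and also a near-median one. AARS, the alanine enzyme (ENSG00000090861.15, chr16:70252295-70289543) had 95.79 FPKM in the RIP against 44.92 in the input, a ratio of 1.08, and 97.4% of protein-coding genes had a lower ratio. These values rest on roughly 7890 estimated RIP fragments and 2270 estimated input fragments. It was past 2-fold with the values as deposited, and below it once ratios were centred on the median gene. SARS, for serine, had 131.08 FPKM in the RIP against 79.3 in the input (0.72). NARS, for asparagine, had 86.85 FPKM in the RIP against 60.9 in the input (0.51). HARS, for histidine, had 75.13 FPKM in the RIP against 56.42 in the input (0.41). GARS, the glycine enzyme, like KARS serves the cytosol and mitochondria from 1 gene, and had 94.34 FPKM in the RIP against 74.16 in the input (0.34). TARS, for threonine, was the most abundant member in the input, with 200.53 FPKM in the RIP against 183.26 in the input, a ratio of 0.13 that equals the median gene's to 2 decimals. The phenylalanine enzyme is built from an alpha and a beta chain, and the messages of its chains differed. FARSA, the alpha chain, had 57.61 FPKM in the RIP against 35.37 in the input (0.69). FARSB, the beta chain and the least abundant cytosolic message, had 21.21 FPKM in the RIP against 18.71 in the input (0.17).

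With the values as deposited, mitochondrial enzymes were spread more widely around a lower middle. Their median ratio was 0.34 (quartiles -0.21 and 0.62, 15 genes), against 0.52 (quartiles 0.35 and 0.70, 20 genes) for the cytosolic enzymes, and 10 of 15 were above 0 against 18 of 20. The mean ratio was 0.48 with an SD over genes of 0.34 in the cytosolic group, and 0.26 with an SD over genes of 0.46 in the mitochondrial group. These SDs describe spread among genes, which are not replicates, and the difference of 0.18 between the medians was not tested. That difference was 0.056 with a floor of 20 FPKM. Relative to coding genes of similar exon number it was 0.04, and -0.0005 relative to those of similar longest transcript. Pseudocounts of 0.1 and 5 left it at 0.18 and 0.19, and rescaling on coding genes at 0.18. Of all genes 58.7% were above 0, and of protein-coding genes 60.8%, so the mitochondrial share lay nearer to these than the cytosolic share. At 1.5-fold, 8 of 20 cytosolic and 6 of 15 mitochondrial genes were higher in the RIP. By the same limit 19.9% of all genes and 19.2% of protein-coding genes were higher.

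The mitochondrial genes with the highest ratios were those for cysteine, alanine and valine. CARS2 had 46.5 FPKM in the RIP against 26.29 in the input (0.80). AARS2 had 21.83 FPKM in the RIP against 12.25 in the input (0.78), and VARS2 had 51.29 FPKM in the RIP against 29.55 in the input (0.78). Their cytosolic counterparts AARS, CARS and VARS were the 3 highest cytosolic genes, so the same 3 amino acids led both compartments before exon number was allowed for. Next came HARS2 with 23.54 FPKM in the RIP against 14.82 in the input (0.63), LARS2 with 16.09 FPKM in the RIP against 10.15 in the input (0.62), and TARS2 with 26.47 FPKM in the RIP against 17.05 in the input (0.61). Variants in HARS2 and LARS2 are known causes of Perrault syndrome, which joins hearing loss with ovarian failure. SARS2 had 24.25 FPKM in the RIP against 17.3 in the input (0.46). YARS2 had 24.4 FPKM in the RIP against 19.12 in the input (0.34), and RARS2 had 42.13 FPKM in the RIP against 33.18 in the input (0.34). FARS2 acts as a single chain, unlike the cytosolic phenylalanine enzyme, and had 11.04 FPKM in the RIP against 10.47 in the input (0.07). Relative to coding genes of the same class of exon number, the 3 highest cytosolic genes were SARS, AARS and FARSA. The 3 highest mitochondrial genes past the limit were then YARS2, CARS2 and HARS2.

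Of the 15 mitochondrial genes past the limit, 5 (33.3%) were lower in the RIP, against 41.2% of all genes and 39.1% of protein-coding genes. MARS2 among the 5 passed the limit through its input value alone. WARS2 had 9.07 FPKM in the RIP against 10.63 in the input (-0.21). EARS2, which charges glutamate and also loads glutamate onto the mitochondrial glutamine tRNA for later conversion, had 18.73 FPKM in the RIP against 21.91 in the input (-0.22). NARS2, for asparagine, had 18.07 FPKM in the RIP against 23.27 in the input (-0.35). MARS2, the methionine enzyme and the single intronless gene of the set, had 4.01 FPKM in the RIP against 5.41 in the input (-0.36). IARS2 (ENSG00000067704.9, chr1:220094102-220148041) was the lowest of all members, with 34.87 FPKM in the RIP against 47.94 in the input (-0.45). IARS2 was also the most abundant mitochondrial enzyme message in the input, whereas VARS2 held that place in the RIP.

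**Figure D2:**
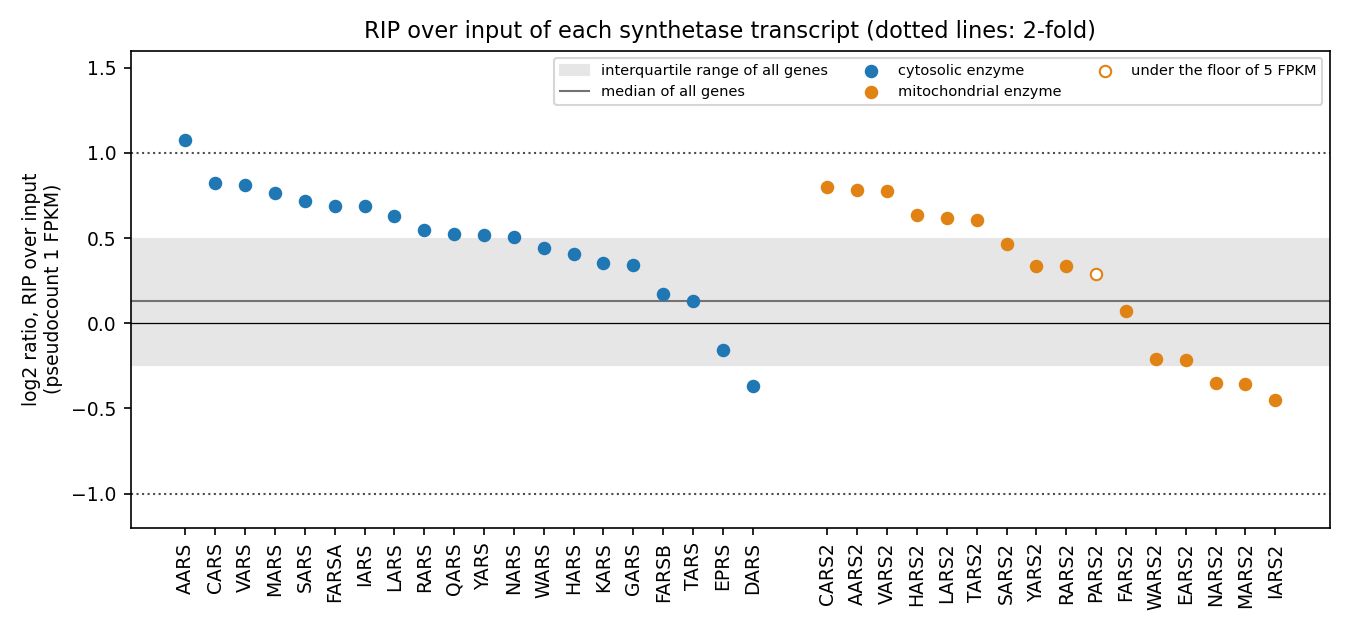
Log2 ratio of RIP over input (pseudocount 1 FPKM) of every synthetase gene, ordered by ratio, with cytosolic and mitochondrial enzymes marked apart and the median of all genes drawn as a line. AARS at 1.08 is the one gene past 2-fold, and IARS2 at -0.45 is the lowest.

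By level, cytosolic enzyme messages were several times more abundant than mitochondrial ones in both libraries. The median cytosolic gene had 90.6 FPKM in the RIP against 62.6 in the input, and the median mitochondrial gene had 22.7 FPKM in the RIP against 17.2 in the input. Summed, the cytosolic genes held 0.189% of the table's FPKM in the RIP against 0.0968% in the input, and the mitochondrial genes 0.0345% in the RIP against 0.02% in the input. As shares of the protein-coding sum the gap was smaller, at 0.39% in the RIP against 0.314% in the input for cytosolic genes and 0.0712% against 0.0648% for mitochondrial genes. The ranges overlapped: 9 mitochondrial genes lay above FARSB, the lowest cytosolic gene, in the RIP, and 7 did in the input. The order of levels over the 36 genes was close between the libraries, with a Spearman rho of 0.949, given as a description of these libraries.

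For 13 amino acids the table held a cytosolic and a mitochondrial enzyme from separate genes, and the cytosolic gene had the higher ratio in 11 of them. The median difference was 0.21 on the log2 scale. It was not spread evenly. In 4 pairs the cytosolic gene was above 0 and the mitochondrial gene below it: IARS over IARS2 by 1.13, MARS over MARS2 by 1.12, NARS over NARS2 by 0.85, and WARS over WARS2 by 0.65. MARS2 reached the 5 FPKM limit through its input value alone, so that limit favoured a ratio below 0. Its ratio was -0.42 with a pseudocount of 0.1 and -0.21 with a pseudocount of 5. In the other 9 pairs both genes were above 0, and no pair had both below. CARS and CARS2 differed by 0.02, LARS and LARS2 by 0.02, and VARS and VARS2 by 0.04, each less than its counting error. The mitochondrial gene was higher for histidine, where HARS minus HARS2 was -0.23, and for threonine, where TARS minus TARS2 was -0.48. The smallest gap in level was between CARS and CARS2, with 1.04 times as much cytosolic message in the RIP against 1.03 times in the input. The widest was between MARS and MARS2, with 47.5 times as much in the RIP against 20.6 times in the input.

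**Figure D3:**
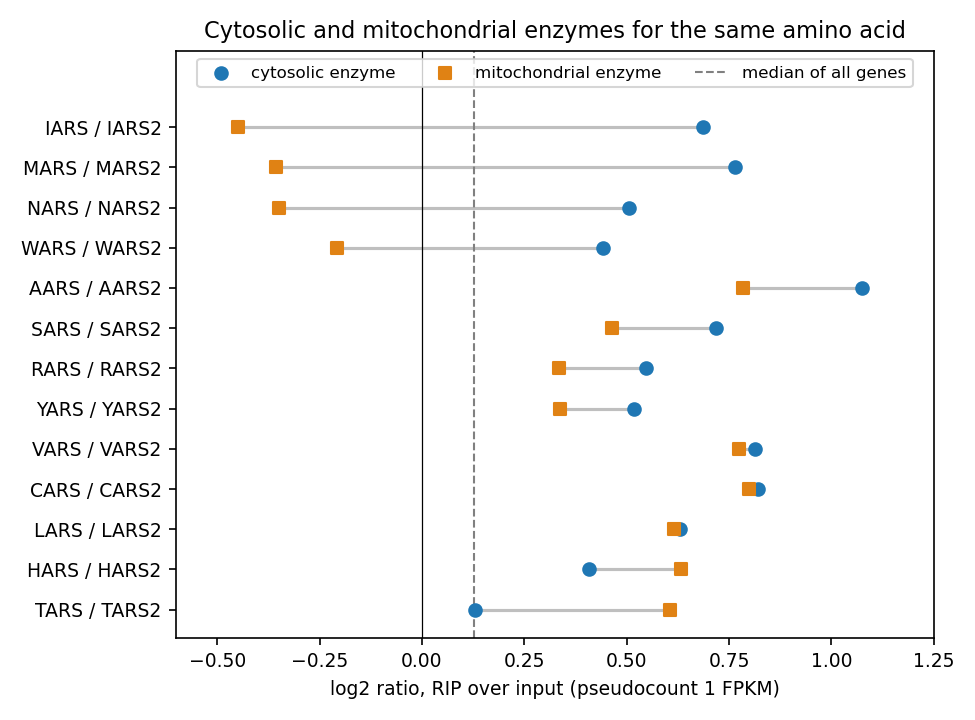
Log2 ratio of RIP over input for the cytosolic (circles) and mitochondrial (squares) enzyme of the same amino acid, 1 row per amino acid, with the median of all genes as a dashed line. The pairs for isoleucine, methionine, asparagine and tryptophan lie on opposite sides of 0, and histidine and threonine are the rows in which the mitochondrial gene is to the right.

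Exon number moved with the ratio across all protein-coding genes, and synthetase genes differ widely in it. Exons were counted in the transcript with the longest coding sequence, and protein-coding genes were divided into quintiles. The median ratio was -0.22 in genes of 1 to 5 exons, -0.04 with 6 to 8, 0.17 with 9 to 12, 0.35 with 13 to 18, and 0.55 with 19 or more. Of the 35 synthetases past the limit, 5 had 8 exons or fewer, all of them mitochondrial (EARS2, FARS2, MARS2, WARS2 and YARS2), with a median of -0.21 against -0.14 for 4557 coding genes. PARS2, under the limit, has 2 exons. The 16 with 9 to 18 exons had a median of 0.48 against 0.25 for 3967 coding genes, and the 14 with 19 or more had 0.66 against 0.55 for 1966 coding genes. In that last class 9 of 14 synthetases (64.3%) passed the 1.5-fold limit on the higher side, against 46.2% of coding genes, and 1 of 14 (7.14%) was at least 2-fold higher, against 10.2%. Over genes, Spearman's rho between ratio and exon number was 0.41 for 35 members and 0.567 for 10490 coding genes. These points share the same pair of libraries, and exon number goes with coding length, for which rho was 0.43 in members and 0.513 in coding genes. Which of these features, if any, bears on the ratio was not tested.

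Taken relative to the median of its own exon-number quintile, the synthetase set lay closer to other genes. The median member was 0.12 above its quintile, with 23 members above and 12 below. The cytosolic median was 0.15 and the mitochondrial median 0.11, a difference of 0.04 between the medians. Within the 13 pairs the median difference was instead 0.29 after this adjustment, against 0.21 before it, with the cytosolic gene higher in 9 pairs, against 11 before. The genes farthest above their quintile were YARS2 by 0.56, SARS by 0.55, AARS by 0.53 and CARS2 by 0.45. Farthest below were IARS2 at -0.9955, DARS at -0.72, EPRS at -0.71, NARS2 at -0.69 and TARS at -0.42. MARS2, with 1 exon, WARS2, with 6, and EARS2, with 8, had ratios below 0 in classes whose medians were below 0 too. IARS2 with 23 exons, EPRS with 32, DARS with 16 and NARS2 with 14 were below 0 in classes whose medians were above it. The isoleucine and asparagine pairs kept differences of 1.13 and 0.85 after this adjustment because both genes of each pair fell in the same quintile. Smaller differences were left for the methionine pair, at 0.35, and the tryptophan pair, at 0.44. Larger ones came out for the arginine pair, at 0.41 against 0.21 before, and the serine pair, at 0.43 against 0.25. The cysteine pair turned to -0.18 and the tyrosine pair to -0.39, with the mitochondrial gene then higher.

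**Figure D4:**
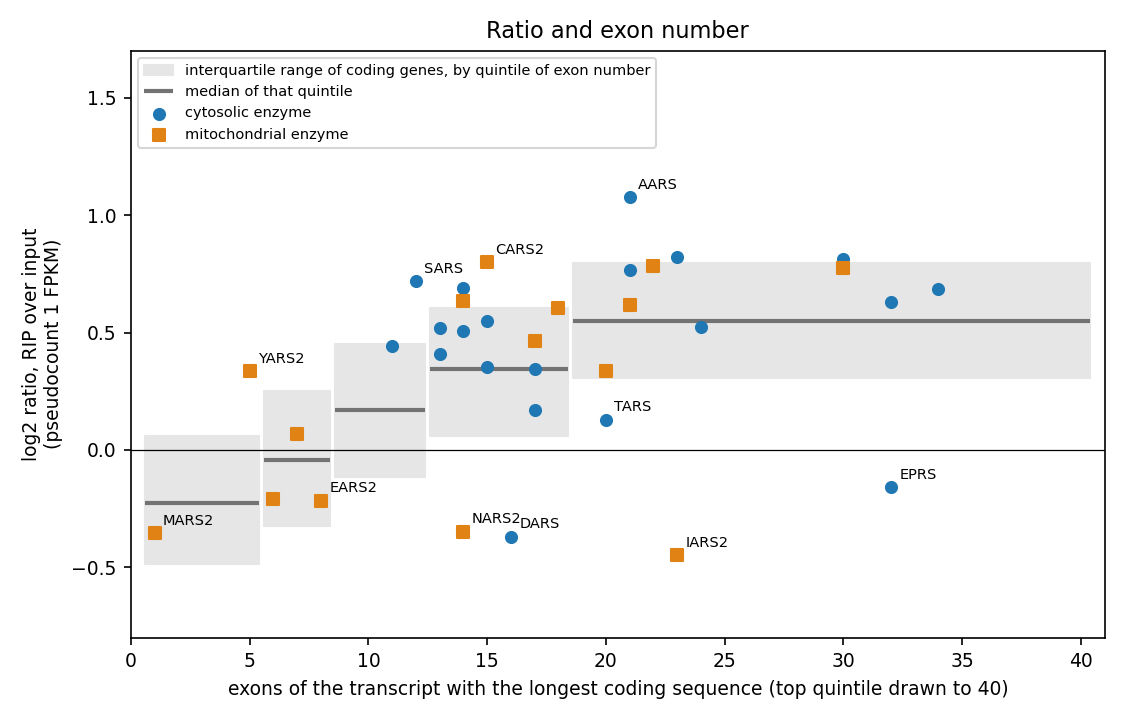
Log2 ratio of RIP over input against the number of exons for cytosolic (circles) and mitochondrial (squares) synthetase genes, over boxes that give the interquartile range and median of protein-coding genes in each quintile of exon number. The medians of coding genes run from -0.22 to 0.55, and IARS2, EPRS, DARS, NARS2 and TARS lie below the box of their class.

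Base composition of the coding sequence also went with the ratio inside the set. The 22 members with at least 50% G and C had a median ratio of 0.61, with 19 above 0, against 3731 of 5583 protein-coding genes in that GC class. At least 1.5-fold higher were 12 of them (54.5%), against 22.4% of that class. The 13 members under 50% had a median of 0.34, with 9 above 0, against 2639 of 4907 protein-coding genes. At least 1.5-fold higher were 2 of them (IARS and LARS, 15.4%), a share at the 15.3% of protein-coding genes in that class. Members and coding genes of a class also differed in exon number. Its median was 14.5 against 9 at 50% or more, and 17 against 11 under 50%. Exon number was not allowed for in these shares. Among cytosolic enzymes the division was even, with a median of 0.70 in 10 GC-rich genes and 0.35 in 10 GC-poor genes. Among mitochondrial enzymes it was 0.54 in 12 and -0.35 in 3. All coding genes showed a smaller gap in the same direction, with 0.21 in 5583 genes and 0.05 in 4907. Over genes, Spearman's rho between ratio and GC was 0.42 in members and 0.15 in coding genes. Over the whole coding sequence GC was 53.2% in AARS, which had the highest ratio, and 42.4% in DARS. IARS2 (44.4%), DARS, EPRS (42.2%) and NARS2 (44.9%) were all GC-poor, but so were IARS (44.3%), LARS (42.1%) and RARS (41.1%), whose ratios were 0.69, 0.63 and 0.55. The part of base composition in any of these ratios was not tested.

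Several members share genome sequence with other genes of the table, which bears on how far their values are their own. The library kit keeps strand, but the strand setting used for counting is not given. Counting only genes that the table holds, 12 members overlap a gene on the opposite strand and 5 one on the same strand. Annotated genes absent from the table overlap members too. Among them, AC011455.2 shares 15493 bases with SARS2 and AC011997.1 shares 3019 with MARS2, both on the same strand. AL353588.1 shares 13673 bases with AARS2 on the opposite strand. MARS overlaps DDIT3, a stress-response transcription factor, by 982 bases on the opposite strand, and their ratios were 0.77 and 0.76. HARS and HARS2 lie head to head on chromosome 5 with 437 shared bases. YARS2 shares 18161 bases with DNM1L, a mitochondrial fission gene on the opposite strand, whose ratio was 0.33 beside 0.34 for YARS2. Overlaps were counted over whole gene spans, introns included, and the YARS2 transcript used here is 2122 bases long. VARS2 shares 5865 bases with GTF2H4 on the same strand, whose ratio was 0.53. In contrast EARS2, at -0.22, overlaps UBFD1 at 1.12, and SARS2, at 0.46, overlaps MRPS12 at -0.46. IARS holds the small nucleolar RNA gene SNORA84, which had 27.25 FPKM in the RIP against 82.64 in the input (-1.57), far from IARS itself. How reads in shared bases were assigned was not tested.

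Charging partners, tRNA processing genes and genes of the response to uncharged tRNA had medians nearer 0 than the synthetases in these libraries. This difference was not tested, and it did not hold for tRNA processing genes once exon number was allowed for. The scaffold genes of the complex, with a median of -0.51, lay about as far from 0 as the cytosolic enzymes, at 0.52. In 16 charging partners, a mixed list of tRNA end repair and editing factors, enzymes that complete aminoacyl-tRNAs, a tRNA exporter, elongation factors and pyrophosphatases, the median ratio was 0.04, with 8 above 0 and 8 below. The highest were AARSD1, which removes serine wrongly joined to alanine tRNA, with 61 FPKM in the RIP against 38.77 in the input (0.64), and TRNT1, which adds the CCA end, with 24.42 FPKM in the RIP against 18.09 in the input (0.41). The lowest were DTD2, an editing deacylase, with 6.31 FPKM in the RIP against 9.53 in the input (-0.53), and GATC, a subunit of the mitochondrial amidotransferase that completes what EARS2 starts, with 13.3 FPKM in the RIP against 19.58 in the input (-0.53). Of all genes, 58.7% had a ratio above 0. In 13 tRNA processing genes the median was 0.21, with 8 above 0. They have a median of 8 exons, against 17 for the synthetases, and relative to their exon quintiles the median was 0.18, above the 0.15 of the cytosolic and the 0.11 of the mitochondrial synthetases. They ran from POP1, a subunit of RNase P, with 16.54 FPKM in the RIP against 8.36 in the input (0.91), to RPP30 with 30.97 FPKM in the RIP against 46.72 in the input (-0.58) and TSEN15, of the tRNA splicing endonuclease, with 6.58 FPKM in the RIP against 13.33 in the input (-0.92). The lists thus held genes on both sides within 1 machinery.

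The response to uncharged tRNA is the pathway in which the kinase GCN2 (EIF2AK4) senses uncharged tRNA and raises ATF4, a transcription factor that induces many synthetase genes. Its 25 genes had a median of 0.03, with 13 above 0, where 58.7% of all genes were above 0. Above the median gene were 10 of the 25. GCN1, the GCN2 activator, was at least 2-fold higher in the RIP, with 81.95 FPKM there and 34.24 FPKM in the input (1.24), and it has 58 exons. EIF2AK4 had a ratio of 0.31, and ATF4 had 259.16 FPKM in the RIP against 298.51 in the input (-0.20). The 77 mitochondrial ribosomal protein genes, which serve the same translation system as the mitochondrial enzymes, had a median of -0.29, with 19 above 0 and 58 below. They have a median of 5 exons, and relative to their exon quintiles the median was -0.16. Of these, MRPS15 was at least 2-fold higher in the RIP, at 1.19. The medians of the charging partner and uncharged tRNA lists lay close to 0 and changed sign when ratios were centred on the median gene.

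**Figure D5:**
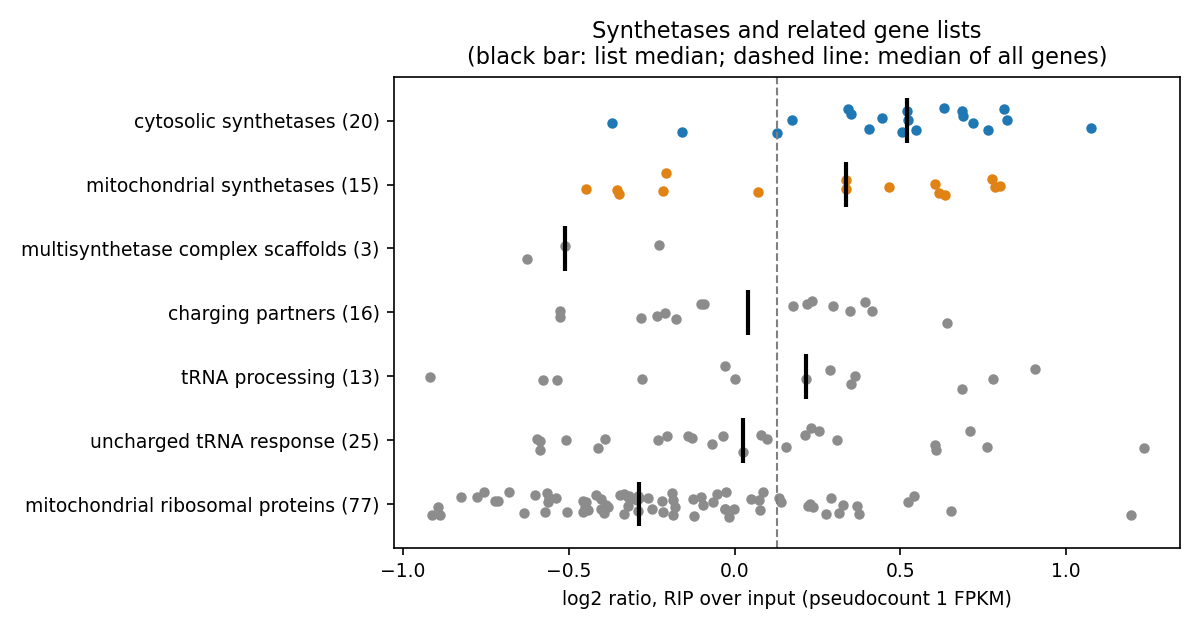
Log2 ratio of RIP over input for each gene of the synthetase groups and of 5 related lists, with the number of genes in parentheses, a black bar at the list median and a dashed line at the median of all genes. The cytosolic (0.52) and mitochondrial (0.34) synthetases lie to the right of the dashed line, and the scaffolds (-0.51) and mitochondrial ribosomal proteins (-0.29) to the left.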

How the data were processed

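RNA was measured in 1 RIP and 1 input library, each a group by its title. Per the submitters' processing notes, cutadapt 1.18, Trimmomatic 0.3, STAR 2.6.1, RSEM 1.2.31 and genome build hg38 were used. How they were set and ordered, the annotation release, the strand setting and the rule for leaving out low genes were not given in the sources used here. Each gene has 1 value per library as the authors deposited it. The unit, FPKM, is not named in the file and was taken from the deposited values, which carry decimals and have column sums of 1090243 (RIP) and 1512049 (input). FPKM is relative to the total of its own library, so a few abundant RNAs lower all other values.

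Genes were matched by Ensembl identifier to GENCODE 29 on GRCh38 (12983 of 13075, 99.3%, and all 36 synthetases), which gave coordinates, exons and coding sequences. Ratios were log2((RIP + 1)/(input + 1)) over genes with at least 5 FPKM in 1 library, which left out 1085 genes. The limits were 2-fold and 1.5-fold. With 1 library a group no p-value or SD over samples exists. All listed synthetases were accounted for. From the other lists, genes at least 2-fold apart were named, or otherwise the highest and lowest pairs, with 1 gene so chosen not reported here; EIF2AK4, ATF4, LRP2, VIM and the overlapping genes were named after their values were seen. The synthetases and all lists were chosen with earlier results of these data known.

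Depth was searched for as the number of fragments and mean fragment length that best made the FPKM of genes with 1 transcript whole fragments. This gave 24900000 fragments of mean length 170 bases for the RIP, where 65.9% of 176 genes lay within 0.15 of a whole number. For the input it gave 15300000 of mean length 168, where 61.8% of 314 genes did, and uniform values would give 30%. Both depths are estimates, and fragment numbers and counting errors of members rest on them. Alternatives were the pseudocount, the floor, the scaling, the fold limit, coding genes alone, and subtraction of the median of coding genes in the same quintile of longest transcript. Rescaling on values times length and the quintiles of exon number, coding GC and coding length were added after seeing the data. The calculations were tested on simulated data. Python 3.11.15, numpy 2.4.6, scipy 1.17.1, pandas 2.3.3 and matplotlib 3.10.9 were used.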

Additional observations from a re-analysis of the deposited data

How the results depend on the processing

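No paired analysis was possible because neither group holds more than 1 library. Normalization by TMM or DESeq2 size factors was not run because the table holds no counts, and no library could be left out. Counts and list medians are as follows. With the values as reported, the 2-fold limit took in 588 higher genes and 300 lower ones, with 1 synthetase higher and 0 lower. A pseudocount of 5 gave 300 higher and 180 lower. A floor of 20 FPKM gave 352 and 157, and a charging partner median of -0.097, against -0.093 with no floor. That floor also brought the mitochondrial median to 0.46, the cytosolic minus mitochondrial difference to 0.056 in place of 0.18, and the uncharged tRNA response to 0.22 in place of 0.03. The 1.5-fold limit gave 2386 and 1222 with 14 synthetases higher, and coding genes alone gave 384 and 56. Ratios centred on the median gene left 365 higher and 450 lower, 0 synthetases, and medians of -0.087 for charging partners and -0.10 for the uncharged tRNA response. Rescaling on coding genes shifts ratios by a median of -0.16, with smaller shifts in low genes because of the pseudocount. It gave 319 higher and 487 lower, 0 synthetases, and medians of 0.35 (cytosolic), 0.17 (mitochondrial, in place of 0.34), -0.12 (charging partners), -0.12 (uncharged tRNA response) and -0.45 (mitochondrial ribosomal proteins). On values times length the median shift was -0.26, with 238 higher, 671 lower, 0 synthetases, and medians of 0.25, 0.073, -0.22, -0.22 and -0.55 for the same lists and -0.056 for tRNA processing.

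Subtracting quintile medians left 0 synthetases past 2-fold in each case. By longest transcript, charging partners came to -0.015, the uncharged tRNA response to -0.0905, and the cytosolic minus mitochondrial difference to -0.0005, in place of 0.18. By exon number, the values were 0.15 (cytosolic), 0.045 in place of 0.54 (complex enzymes), 0.14 in place of 0.52 (class I), 0.11 (class II), -0.031 (charging partners) and -0.007 (uncharged tRNA response). By coding GC, charging partners came to -0.075 and the uncharged tRNA response to -0.20. By coding length, the values were 0.25 (cytosolic), -0.015 (tRNA processing) and -0.0701 (uncharged tRNA response). The causes of these shifts were not tested beyond what each subtraction removes. The sign of a synthetase's ratio changed in 0 genes by pseudocount or floor, 1 by centring, 2 by rescaling on coding genes, 3 on values times length, and at most 5 (exon number) by the quintiles.

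Limits are 1 library per group, no RIP without the tagged protein, a bait at 30666 FPKM in the RIP against 15062 in the input, an unnamed unit and an estimated depth. The FPKM scale makes the zero of the ratio arbitrary by at least the shifts above. Low genes such as PARS2, with a counting error of 0.18, cannot be ordered against their neighbours.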

Other observations

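A synthetase gene outside the list, chosen after its values were seen, was also measured. TARSL2, a cytosolic threonine enzyme related to TARS, had 27.49 FPKM in the RIP against 24.5 in the input (0.16), next to 0.13 for TARS.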
